A study of Mus musculus with 2 samples.

Results

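Ionotropic glutamate receptor subunits were followed across the cell classes of the mouse hippocampus. The 8 genes are the AMPA receptor subunits Gria1, Gria2, Gria3 and Gria4, the NMDA receptor subunits Grin1, Grin2a and Grin2b, and the kainate receptor subunit Grik2. They were taken by name, with earlier results of these data known, and all 8 are among the 12744 genes that both libraries list. Each was measured in dentate granule neurons, Cajal-Retzius neurons, other neurons, precursors and astrocytes, with cells assigned to a class by the UMIs of marker genes. A UMI (unique molecular identifier) stands for 1 captured transcript molecule.

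The series holds 2 single-cell libraries from hippocampi of 57-week-old mice. The GlaKO library comes from mice whose Gla gene is knocked out. Gla codes for alpha-galactosidase A, an enzyme that degrades glycolipids in lysosomes and is deficient in Fabry disease, of which these mice are a model. The wt library comes from their littermate controls. Mice of both groups were anaesthetised with xylazine and ketamine and perfused with PBS, and the hippocampi were dissociated with enzymes, cleared of debris on a density gradient and sorted with the dye 7-AAD. How many animals stand behind a library is not given, so every difference below is one between 2 libraries, no test was possible, and each interval is a 95% interval that covers counting error only.

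Ionotropic glutamate receptors are ion channels opened by glutamate, the main excitatory transmitter of the brain. AMPA receptors carry the fast current of excitatory synapses, and the Gria2 subunit makes them nearly impermeable to calcium. NMDA receptors need Grin1 in every channel together with Grin2 subunits, open only when glutamate and depolarisation coincide, and are known for their role in hippocampal plasticity and memory. Kainate receptors modulate release and excitability. Oligodendrocyte precursors receive glutamatergic synapses from neurons, and astrocytes carry glutamate receptors as well as the transporters that clear glutamate.

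Marker genes set the labels of the classes. Dentate granule neurons (262 GlaKO and 234 wt cells) had UMIs of the granule markers C1ql3 in 99.6 and 100% of cells and Prox1 in 82.8 and 73.9%. Cajal-Retzius neurons (44 and 49 cells), an early-born type that makes the secreted protein reelin, had Reln in 100 and 100% of cells and no UMI of Slc17a7 in either library. Other neurons (88 and 44 cells) were mostly glutamatergic by marker UMIs (78 GlaKO and 38 wt cells), and 54 GlaKO and 32 wt cells had more UMIs of the vesicular glutamate transporter Slc17a7 than of its relative Slc17a6. Precursors (430 and 367 cells) had Pdgfra in 97.9 and 98.9% of cells and Cspg4 in 92.6 and 89.9%, which are markers of oligodendrocyte precursors. Astrocytes (412 and 387 cells) had Gja1 in 98.8 and 99.2% of cells and Aqp4 in 86.9 and 88.9%.

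Gla itself, the knocked-out gene, was counted at 222 UMIs (7.43 UMIs per 1000000, or CPM) in the GlaKO library and at 397 UMIs (12.4 CPM) in the wt library, a log2 ratio of -0.74 (-0.99 to -0.50). Precursors had 17 GlaKO and 40 wt UMIs of it, while in granule neurons (19 and 12) and astrocytes (16 and 14) no difference was detectable. Other neurons had 8 GlaKO and 0 wt UMIs and Cajal-Retzius neurons 0 and 1. The value over all cells also pools libraries in which choroid plexus epithelium was 16.6% of GlaKO and 45.9% of wt cells. Which part of Gla is deleted is not given in the sources used here, and 3′ tags that lie outside that part do not check the genotype.

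Depth differed between the libraries. The GlaKO library held 29914106 UMIs over 4572 barcodes and the wt library 31929688 over 5443, and 6 barcode sequences occur in both. GlaKO cells were deeper in each of the 5 classes, with a median of 5762 UMIs against 4577 in wt granule neurons and 2675 against 2456 in precursors. Oligodendrocyte marker transcripts were also higher in GlaKO cells of each class, at 526 against 342 CPM (UMIs per 1000000 UMIs of the class) in granule neurons, 500 against 192 CPM in other neurons and 801 against 396 CPM in astrocytes. The part of these transcripts in the ratios below was not tested, while ratios matched for depth are given. Choroid plexus epithelium, microglia and T cells, where these receptors should be silent, give the background. The 8 genes together were lowest in choroid plexus, at 14.5 CPM in 760 GlaKO cells and 8.57 CPM in 2499 wt cells. They stood at 50.2 and 76.9 CPM in GlaKO and wt microglia and at 108 and 68.5 CPM in GlaKO and wt T cells.

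The promoters of Gria2, found well above background in all 5 classes, and of Grin1, the subunit that every NMDA channel needs, are shown as one AMPA and one NMDA gene. RefSeq's promoter table for GRCm38.p6 held 4 of the 8 genes (Gria2, Gria4, Grin1 and Grik2) and had no entry for Gria1, Gria3, Grin2a and Grin2b. The sequences are the 250 bases before the start of the gene, on the minus strand in both cases, with Gria2 at chr3:80802836-80803085 and Grin1 at chr2:25319188-25319437. Capitals mark CG pairs, the sites of vertebrate DNA methylation.
Gria2 promoter: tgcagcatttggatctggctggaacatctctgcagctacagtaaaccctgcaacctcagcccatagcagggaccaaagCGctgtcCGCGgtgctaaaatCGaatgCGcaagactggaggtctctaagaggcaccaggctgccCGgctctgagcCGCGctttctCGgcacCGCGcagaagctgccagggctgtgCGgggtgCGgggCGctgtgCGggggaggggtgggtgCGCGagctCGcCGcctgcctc
Grin1 promoter: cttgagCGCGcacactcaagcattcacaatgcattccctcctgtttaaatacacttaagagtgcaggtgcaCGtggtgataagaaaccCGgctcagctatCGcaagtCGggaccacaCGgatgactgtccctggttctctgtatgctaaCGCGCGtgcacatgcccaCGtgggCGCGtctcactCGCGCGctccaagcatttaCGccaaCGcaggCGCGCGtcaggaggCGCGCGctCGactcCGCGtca
The Gria2 window held 19 CG pairs, a number reached by 19.7% of the 32851 promoters of the table, and the Grin1 window held 27, reached by 8.56%. Grik2 held 20 CG pairs and Gria4 16, against a median of 6 over the table. The letters TTCAGCACC, part of the motif bound by the neuronal repressor REST, were searched on both strands. They occurred in none of the 4 windows and in 0.301% of all promoters (99 of 32851), which says only that these letters are not in these windows.

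Summed over the 8 genes, receptor transcripts were highest in granule neurons, at 6408 CPM (6288 to 6529) in GlaKO cells and 5952 CPM (5816 to 6091) in wt cells. Other neurons followed with 4425 and 4504 CPM, precursors with 1913 and 1663 CPM, astrocytes with 1608 and 1500 CPM, and Cajal-Retzius neurons with 843 and 692 CPM. That order was the same in both libraries, and neighbours in it differed beyond their counting intervals. Precursors and astrocytes, which are glia, thus had higher summed levels than Cajal-Retzius neurons, by 2.27-fold (1.94 to 2.66) and 1.91-fold (1.63 to 2.24) in the GlaKO library and by 2.40-fold and 2.17-fold in the wt library. All 5 classes stood above oligodendrocytes, the class with the highest sum outside them, at 131 and 143 CPM.

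**Figure D1:**
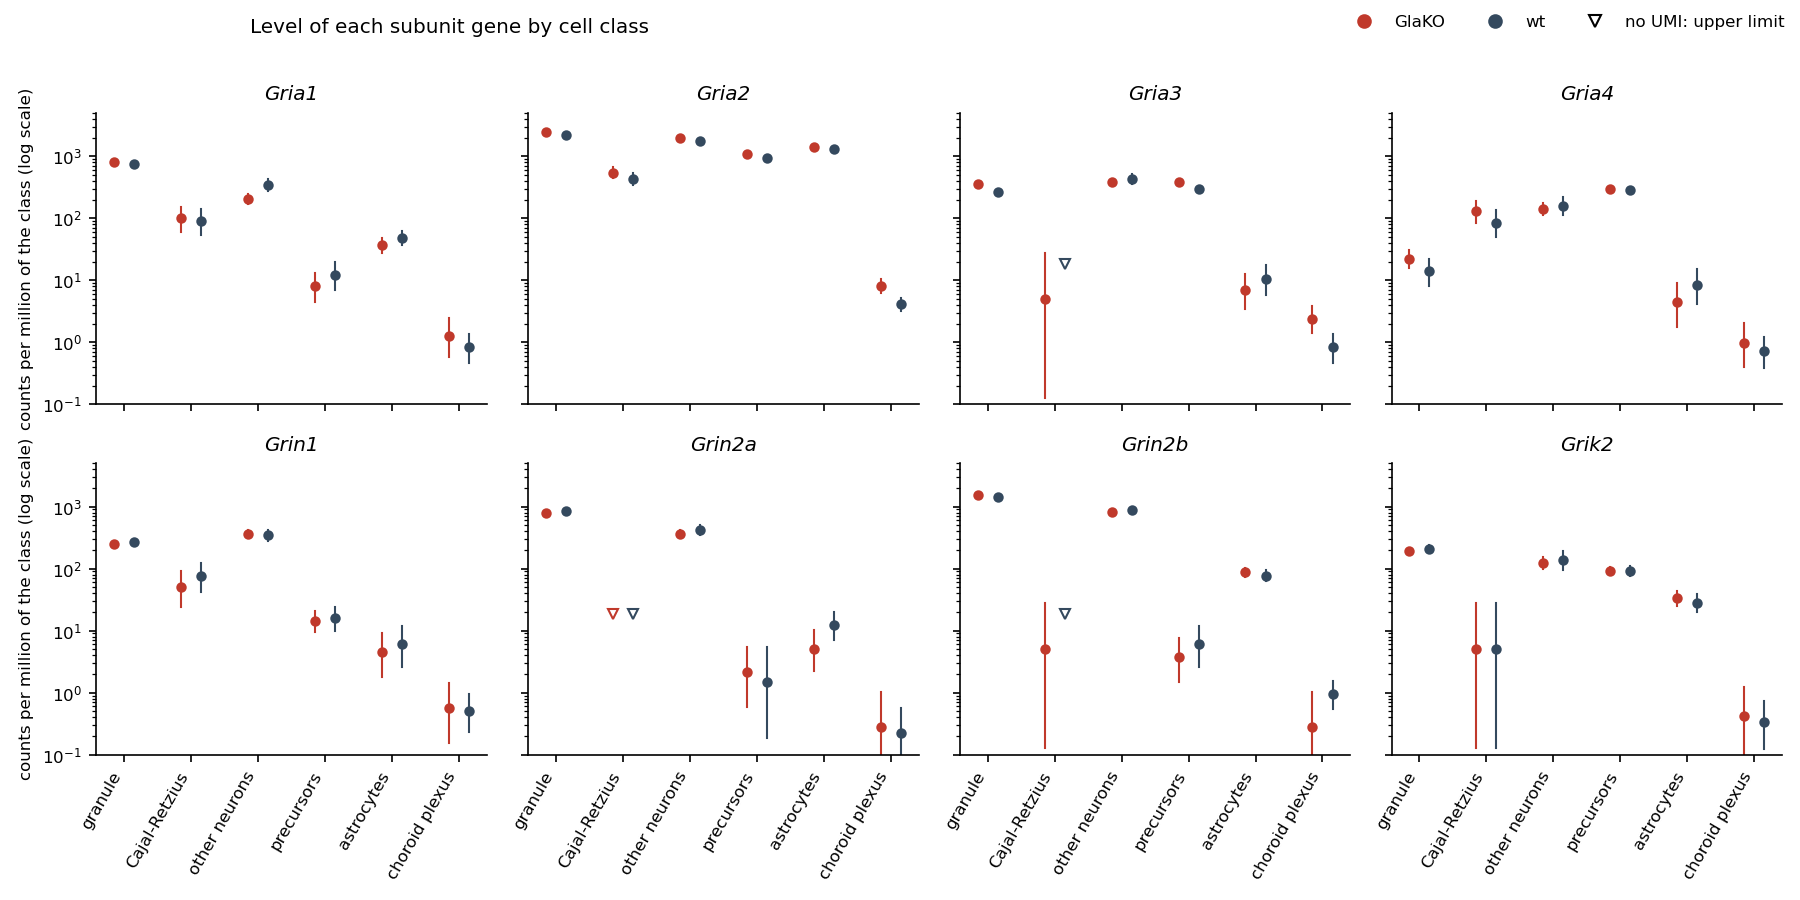
Level of each of the 8 genes (CPM of the class, log axis) in the 5 classes and in choroid plexus epithelium, with GlaKO left of wt. Choroid plexus is the background class with the lowest sum, and microglia and T cells are not drawn. Points are class sums, bars are 95% counting intervals, and open triangles are upper limits where no UMI was seen. Gria2 stands at 437 CPM or more in all 5 classes, while Grin2a stands at 365 CPM or more in granule and other neurons and at 12.2 CPM or less in the remaining 3.

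Single cells varied widely around these class levels. Per granule cell, the 8 genes together had a median of 6439 CPM in the GlaKO library and of 5970 CPM in the wt library. The 10th and 90th percentiles of cells were 3466 and 10210 CPM in GlaKO and 3653 and 8675 CPM in wt. In precursors the medians were 2013 and 1761 CPM, and in astrocytes 1543 and 1295 CPM. Cajal-Retzius cells had medians of 706 and 468 CPM, from 3 and 2 UMIs per cell. In each of the 5 classes the distance between the 25th and 75th percentile was larger than that between the medians of the libraries.

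**Figure D2:**
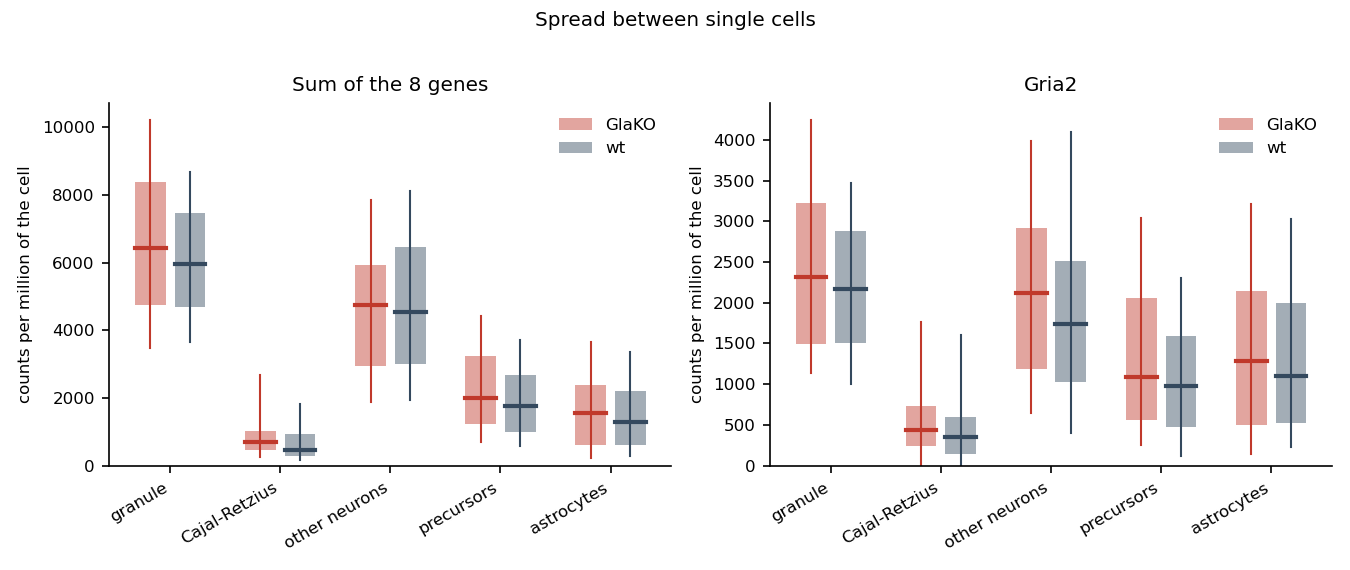
CPM, here UMIs per 1000000 UMIs of the cell, for the sum of the 8 genes and for Gria2, by class, with GlaKO left of wt. Thick lines are medians, boxes run between the 25th and 75th percentile of cells, and thin lines between the 10th and 90th. Boxes of the 2 libraries overlap in all 5 classes.

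Gria2 (chr3:80681450-80802835, minus strand, GENCODE annotation of GRCm38 here and below) was the gene well above background in all 5 classes. It stood at 2443 CPM in GlaKO and 2171 CPM in wt granule neurons, at 2009 and 1793 CPM in other neurons, at 1429 and 1309 CPM in astrocytes, at 1110 and 954 CPM in precursors and at 549 and 437 CPM in Cajal-Retzius neurons. The 5 levels kept this order in both libraries, each beyond the interval of the next. After every cell was thinned to 1000 UMIs, 88.9% (84.5 to 92.5) of GlaKO and 85.9% (80.8 to 90.1) of wt granule cells still had a Gria2 UMI, as did 65.8 and 66.9% of astrocytes. In choroid plexus epithelium the thinned share was 0.526 and 0.56%, from cells with a median of 8576 and 6038 UMIs before thinning, against 3286 and 2982 in astrocytes. Thinned shares were 1.81 and 2.14% in microglia and 2.63 and 3.23% in T cells. Without thinning, 90.3 and 91.2% of astrocytes and 6.05 and 2.44% of choroid plexus cells had a Gria2 UMI.

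Astrocytes differed from the other 4 classes in how far Gria2 stood alone among the AMPA subunits. Gria2 took 96.7% (95.9 to 97.4) of the UMIs of Gria1 to Gria4 in GlaKO astrocytes and 95.1% (94.0 to 96.02) in wt astrocytes. In granule neurons it took 67.4 and 67.8%, in Cajal-Retzius neurons 70.1 and 71.3%, in other neurons 73.3 and 65.6% and in precursors 61.6 and 61.7%. Such shares are compared between classes and not between genes, since 3′ tags of different genes are not captured alike. The astrocyte share lay above those of the other 4 classes by more than the counting intervals in both libraries.

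Gria1 (chr11:57011387-57330244, plus strand), the AMPA subunit whose delivery to synapses accompanies long-term potentiation, was highest in granule neurons. Its level was 800 CPM (758 to 844) in GlaKO granule neurons and 751 CPM (703 to 802) in wt granule neurons. Other neurons had 206 and 347 CPM, which puts granule neurons 3.88-fold (3.21 to 4.73) higher in the GlaKO library and 2.16-fold (1.73 to 2.73) higher in the wt library. Cajal-Retzius neurons had 99.8 and 90.3 CPM and astrocytes 37.0 and 48.8 CPM, and the level intervals of these neighbours overlapped in the wt library. The direct fold of Cajal-Retzius neurons over astrocytes was 1.85 (1.03 to 3.16) there. Precursors were lowest with 15 GlaKO and 16 wt UMIs (7.99 and 12.1 CPM), and the highest class outside the 5 stood at 12.2 CPM in GlaKO (T cells) and 9.80 CPM in wt (microglia). Gria1 was 0.444% of the AMPA subunit UMIs of GlaKO precursors and 0.78% of those of wt precursors, against 22.1 and 23.5% in granule neurons.

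Gria3 (chrX:41400854-41678601, plus strand) and Gria4 (chr9:4417896-4796234, minus strand), which form AMPA channels with Gria2, were both found in precursors, with Gria4 higher there than in neurons. For Gria3 the level was 385 CPM in GlaKO and 297 CPM in wt precursors, 383 and 431 CPM in other neurons, and 360 and 267 CPM in granule neurons; the 3 classes overlapped in the GlaKO library, and in the wt library other neurons stood above the other two. Cajal-Retzius neurons held 1 GlaKO and 0 wt UMIs of Gria3. For 0 UMIs over 49 wt cells, a floor of 3 counts is 15.1 CPM and the upper end of the exact interval is 18.5 CPM. Astrocytes held 7.02 and 10.7 CPM, at the level of T cells (14.1 CPM in GlaKO) and microglia (8.24 CPM in wt).

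Gria4 was highest in precursors, at 299 CPM (275 to 325) in GlaKO and 284 CPM (256 to 314) in wt cells. Other neurons at 143 and 160 CPM and Cajal-Retzius neurons at 130 and 85.3 CPM came next with overlapping level intervals, and the interval of wt Cajal-Retzius neurons reached down to 49.7 CPM. The direct fold of other neurons over Cajal-Retzius neurons was 1.10 (0.70 to 1.79) in GlaKO and 1.87 (1.04 to 3.52) in wt. In granule neurons Gria4 was low, with 38 GlaKO and 17 wt UMIs (22.3 and 14.0 CPM). Mature oligodendrocytes, the class outside the 5 with the highest level, had 55.7 CPM (51.0 to 60.8) in GlaKO and 49.7 CPM (43.7 to 56.3) in wt cells, which is above granule neurons and astrocytes (4.47 and 8.38 CPM). Cajal-Retzius neurons and granule neurons stood at opposite sides for this pair, with Gria4 and almost no Gria3 in Cajal-Retzius cells and Gria3 with little Gria4 in granule cells.

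The obligatory NMDA subunit Grin1 (chr2:25291181-25319187, minus strand) was highest in neurons. It reached 363 CPM in GlaKO and 343 CPM in wt other neurons, and 253 and 266 CPM in granule neurons, with the 2 classes overlapping in the wt library. Cajal-Retzius neurons had 49.9 CPM (23.9 to 91.8) and 75.3 CPM (42.1 to 124), from 10 and 15 UMIs. Precursors had 27 and 21 UMIs (14.4 and 15.8 CPM), which is above the highest class outside the 5, oligodendrocytes at 2.21 CPM in GlaKO and microglia at 4.71 CPM in wt. Astrocytes held 7 and 8 UMIs, of which 1 cell gave 42.9% in GlaKO and 62.5% in wt.

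Grin2a (chr16:9567898-9995560, minus strand) and Grin2b (chr6:135713233-136173511, minus strand), which set the kinetics of NMDA receptors, were highest in granule neurons and next in other neurons. Grin2a stood at 793 CPM in GlaKO and 841 CPM in wt granule neurons and at 365 and 423 CPM in other neurons. Grin2b stood at 1542 CPM (1484 to 1603) and 1431 CPM (1365 to 1500) in granule neurons and at 832 and 870 CPM in other neurons. The share of Grin2b in the UMIs of this pair was 66.1% (64.6 to 67.5) in GlaKO and 63.0% (61.2 to 64.8) in wt granule neurons, and 69.5 and 67.3% in other neurons. In granule neurons those intervals overlapped narrowly.

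Cajal-Retzius neurons lacked these partners at this depth. Grin2a had 0 UMIs in 44 GlaKO and 0 in 49 wt Cajal-Retzius cells, and Grin2b had 1 GlaKO and 0 wt UMIs. For a count of 0 a floor of 3 counts was set, which is 15.0 and 15.1 CPM for Grin2a. The upper end of the exact Poisson interval lies higher, at 18.4 and 18.5 CPM. Set against this floor of 3 counts per library, Grin2a in granule neurons was 53.0-fold higher in GlaKO and 55.9-fold higher in wt. The exact upper ends would give smaller folds. Of the UMIs of Grin1, Grin2a and Grin2b in Cajal-Retzius cells, Grin1 gave 10 of 11 in GlaKO and 15 of 15 in wt. Grin3a, an NMDA subunit outside the 8 genes, had 3 GlaKO and 0 wt UMIs there. The NMDA subunits Grin2d and Grin3b are not among the genes that both libraries list. Whether Grin1 had them as partners could not be seen. As a share of the UMIs of all 8 genes, Grin1, Grin2a and Grin2b together were 6.51 and 10.9% in Cajal-Retzius neurons, against 40.4 and 42.6% in granule neurons and 35.3 and 36.3% in other neurons.

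Among glia, Grin2b stood out in astrocytes. It had 136 UMIs in GlaKO and 101 in wt astrocytes, or 86.8 CPM (72.9 to 103) and 77.0 CPM (62.7 to 93.5), and came from 23.8 and 18.6% of the cells. After thinning 9.95 and 7.49% of astrocytes kept a UMI, against 0 and 0.2% of choroid plexus cells. Precursors, with 7 and 8 UMIs, were 23.3-fold (11.0 to 59.0) lower than astrocytes in the GlaKO library and 12.7-fold (6.23 to 30.3) lower in the wt library. Of the UMIs of Grin1, Grin2a and Grin2b in astrocytes, Grin1 was 4.64 and 6.40%, against 9.78 and 10.5% in granule neurons. Grin2a was 5.30 and 12.8% of them, against 30.6 and 33.1% in granule neurons. Astrocytes held only 8 GlaKO and 16 wt UMIs of Grin2a, of which 1 cell gave 87.5% in GlaKO and 43.8% in wt. These shares leave out the NMDA subunit Grin2c, which at 448 CPM in GlaKO and 436 CPM in wt astrocytes had more UMIs there than the 3 genes together. The 8 neuronal markers summed to 119 CPM in GlaKO and 133 CPM in wt astrocytes, against 5605 and 5609 CPM in granule neurons. The last exon of Grin2b is touched by the annotated gene Gm14329 on the other strand, as is that of Grin1 by Grin1os, and the sources used here do not say whether counting used strand.

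The kainate subunit Grik2 (chr10:49094833-49788766, minus strand) was found in granule neurons (194 CPM in GlaKO and 211 CPM in wt), other neurons (124 and 136 CPM) and precursors (92.1 and 92.8 CPM). Granule neurons stood above the other 2 classes in the GlaKO library, while the level intervals of neighbours in that order overlapped in the wt library. The direct wt fold was 1.55 (1.08 to 2.29) for granule over other neurons and 1.46 (0.97 to 2.15) for other neurons over precursors. Astrocytes held 33.8 and 28.2 CPM, the same as oligodendrocytes within the counting intervals (31.5 and 28.4 CPM). Cajal-Retzius neurons had 1 UMI in each library.

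**Figure D3:**
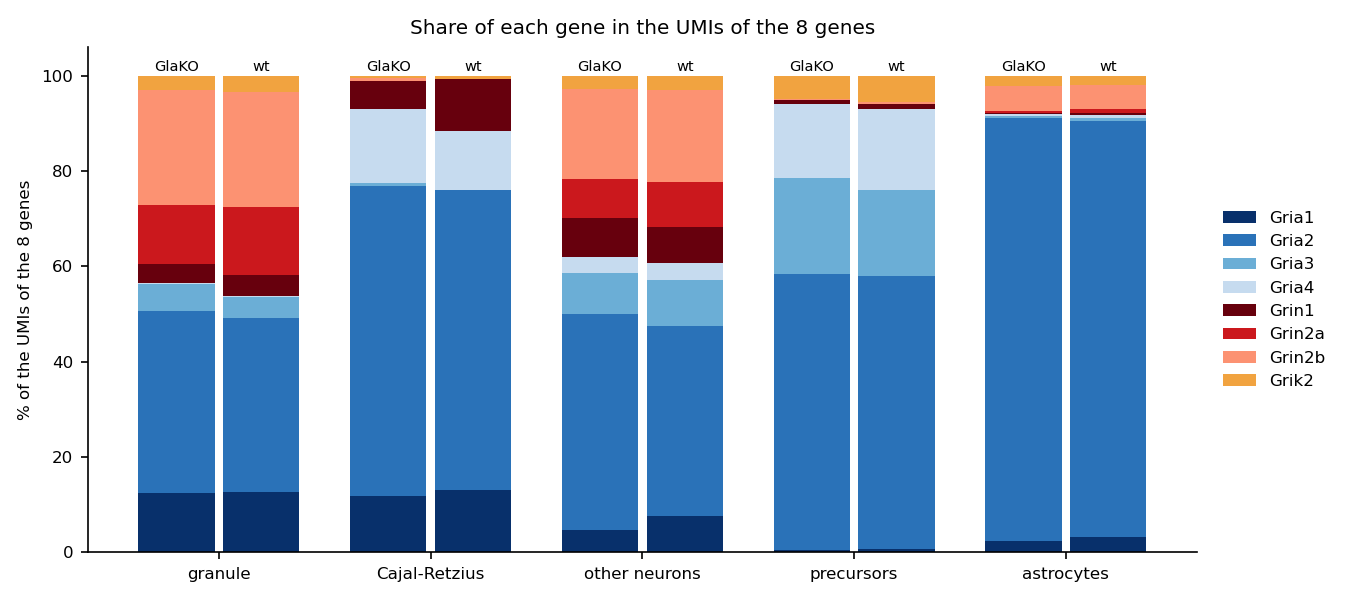
Share (percent) of each gene in the UMIs of the 8 genes, by class, with the GlaKO bar left of the wt bar. Grin1, Grin2a and Grin2b (reds) take 40.4 and 42.6% in granule neurons and 1.06 and 1.41% in precursors, Grin2c and Grin3a are not among the 8, and Gria2 nearly fills the AMPA part (blues) in astrocytes.

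The low share in precursors holds for these 3 NMDA genes and not for every NMDA subunit. Grin3a, whose channels pass less calcium and which was named after its values were seen, had 489 UMIs (260 CPM) in GlaKO and 321 UMIs (242 CPM) in wt precursors, against 27 and 21 UMIs of Grin1. Its log2 ratio there was 0.10 (-0.10 to 0.31).

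Patterns over the 10 class and library levels grouped some of the subunits. Pearson's r of log2(CPM + 10) was 0.96 between Grin2a and Grin2b, 0.92 between Gria3 and Grik2, and 0.90 between Gria2 and Grin2b, while Gria4 had r between -0.40 and 0.39 with the other 7 genes. Among 10562 genes with enough UMIs, the most similar to Grin2a were Slc30a3, the zinc transporter of glutamatergic vesicles (r = 1.00), Icam5 and Itpka. Those most similar to Grin1 were Eno2, Syt5 and Habp4, to Grin2b Tef, Agfg2 and Rasgrp1, and to Gria1 Pkig, Mef2d and St3gal1. Gria2 was closest to Igfbp5, Tspan5 and Smcr8, Gria3 to Nceh1, Slitrk1 and Dok6, Gria4 to Slc35f1, Fxyd6 and Dpysl3, and Grik2 to Cttnbp2 and D5Ertd579e. These 10 points are 5 classes of the same 2 libraries, so r is a description with no test.

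Between genotypes nearly all ratios of the receptor genes stayed within 1.5-fold. A gene was compared in a class where its UMIs summed to 100 or more over both libraries, which left 7 of the 8 in granule neurons, 1 in Cajal-Retzius neurons, 8 in other neurons, 4 in precursors and 3 in astrocytes. Of these 23 ratios 1 passed 1.5-fold, Gria1 in other neurons. In granule neurons 0 of 7 passed, where 2.98% of 5966 genes did in either direction. The count was 0 of 1 in Cajal-Retzius neurons (4.8% of 687 genes), 1 of 8 in other neurons (11.5% of 2001 in either direction and 4.5% lower), 0 of 4 in precursors (3.03% of 6637) and 0 of 3 in astrocytes (3.27% of 5382).

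**Figure D4:**
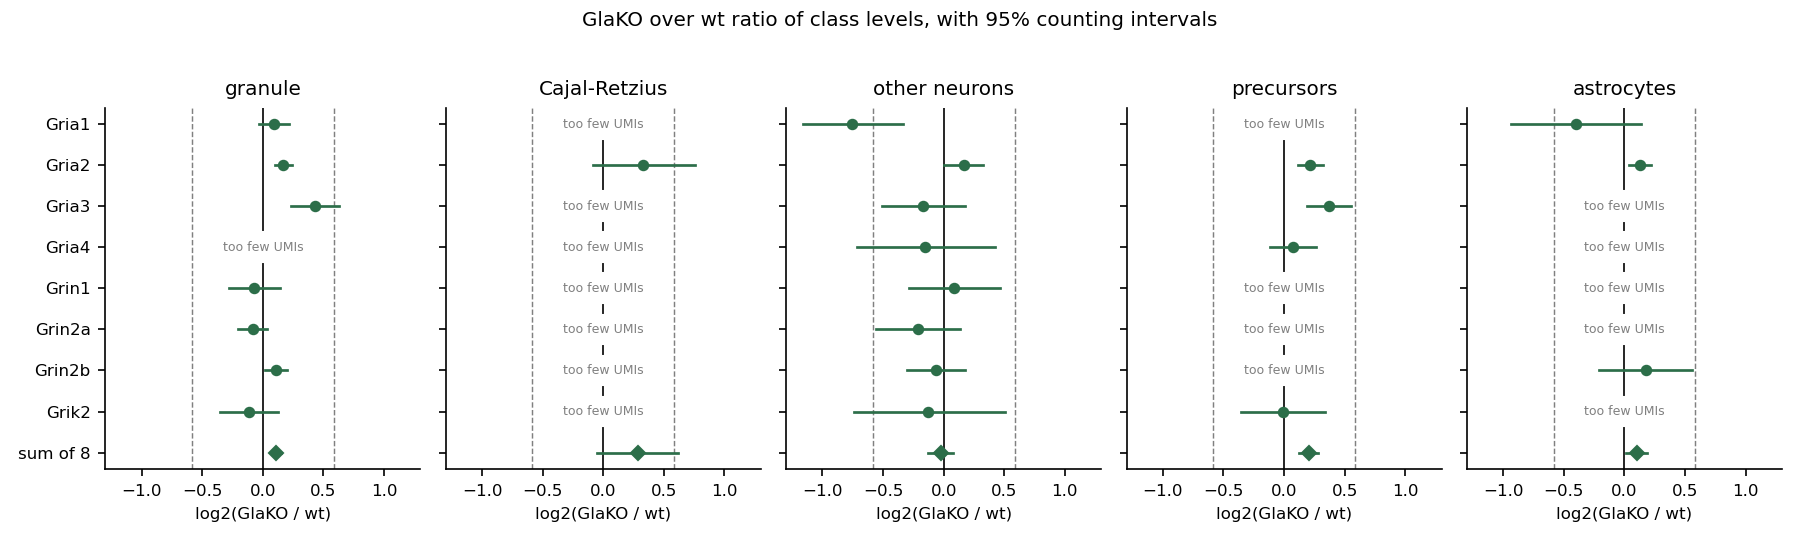
Ratio of GlaKO over wt levels (log2) of each gene and of the sum of the 8 in the 5 classes, with 95% counting intervals. Dashed lines mark 1.5-fold, and genes with under 100 UMIs over both libraries are not drawn. Gria1 in other neurons (-0.75) lies past the line, and Gria3 in granule neurons (0.43) and precursors (0.37) lies nearest to it on the higher side.

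In granule neurons the 8 genes together were slightly higher in GlaKO, with a log2 ratio of 0.11 (0.06 to 0.15). Of the 7 compared genes 4 were higher and 3 lower, with a median of 0.09 against -0.00 over all genes. Gria3 was the highest, with 613 UMIs (360 CPM) in GlaKO against 324 UMIs (267 CPM) in wt and a log2 ratio of 0.43 (0.24 to 0.63). A ratio as high was reached by 4.86% of the 5966 genes. Gria2 stood at 0.17 (0.10 to 0.24) and Grin2b at 0.11 (0.02 to 0.20). Gria1 (0.09), Grin1 (-0.07), Grin2a (-0.09) and Grik2 (-0.12) had intervals that include equal levels, and these counts are too few to show a difference of that size. With cells of both libraries weighted equally over 5 parts of UMI depth, Gria3 stood at 0.43 and Gria2 at 0.21, and with cells thinned to 1000 UMIs they stood at 0.67 and 0.24. Gria3 thus passed 1.5-fold after thinning.

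Precursors showed the same 2 genes higher. Gria3 had 722 UMIs in GlaKO (385 CPM) and 394 in wt (297 CPM), a log2 ratio of 0.37 (0.19 to 0.55), which 7.41% of the 6637 genes reached. Gria2 had a log2 ratio of 0.22 (0.12 to 0.32), and Gria4 (0.07) and Grik2 (-0.01) did not differ detectably. The sum of the 8 was at 0.20 (0.12 to 0.28). Equal weights over UMI depth gave 0.34 for Gria3 and 0.40 for Gria2, while thinning gave 0.13 and 0.43. Gria3 thereby moved outside its own interval after thinning, and Gria2 moved above its own interval under both. Oligodendrocyte markers summed to 1189 CPM in GlaKO and 762 CPM in wt precursors, and their part in these ratios was not tested.

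In other neurons Gria1 was lower in GlaKO, with 118 UMIs over 88 cells (206 CPM, 171 to 247) against 87 UMIs over 44 cells (347 CPM, 278 to 428) in wt. The log2 ratio was -0.75 (-1.16 to -0.34), and 1.9% of the 2001 genes were as low. A single wt cell held 22 of those 87 UMIs (25.3%), and leaving out the cell with the most Gria1 in either library gave -0.52, inside 1.5-fold. With glutamatergic cells (78 GlaKO and 38 wt) and GABAergic cells (8 and 3) given equal weight, the ratio was -1.42. Only Gad1 of the 4 listed GABAergic markers is in both libraries, so the GABAergic label rests on 1 gene. Gad1 also had UMIs in 49.6% of GlaKO and 39.7% of wt granule neurons. The makeup of the class differed as well: 15 GlaKO and 2 wt cells had more UMIs of Slc17a6 than of Slc17a7, and Gria1 stood at 46.9 CPM in those GlaKO cells. Within the Slc17a7-led cells, a split made after the data were seen, Gria1 had 219 CPM in GlaKO and 314 CPM in wt, a log2 ratio of -0.52 (-1.02 to -0.01). The neuroblast markers summed to 133 CPM in GlaKO and 339 CPM in wt other neurons, and their part in the ratio was not tested. The remaining 7 genes lay between -0.21 (Grin2a) and 0.16 (Gria2, 0.01 to 0.33), and the Gria2 interval excludes equal levels. Gria4 was at -0.16 but at 0.93 after thinning, and Grik2 was at -0.13 but at 1.65 with glutamatergic and GABAergic cells given equal weight, so the sign of both ratios changed with the setting. The sum of the 8 was at -0.03 (-0.13 to 0.08).

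Astrocytes had Gria2 slightly higher, at 1429 CPM in GlaKO and 1309 CPM in wt with a log2 ratio of 0.13 (0.04 to 0.22), a size that 27.8% of the 5382 genes reached. Grin2b was at 0.17 (-0.21 to 0.56) and Gria1 at -0.40 (-0.94 to 0.14), and both intervals include equal levels. Gria1 was at -0.86 after thinning, past 1.5-fold, and at -0.03 with Leiden clusters as classes. In Cajal-Retzius neurons Gria2 was compared alone, with 110 UMIs in 44 GlaKO cells and 87 in 49 wt cells and a log2 ratio of 0.33 (-0.09 to 0.75). It turned to -0.17 after thinning, so its direction was not fixed at this depth.

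The AMPA receptor also needs auxiliary proteins, and 58 genes for auxiliary subunits, other glutamate receptors, scaffolds and RNA editing were read as its surroundings, of which 51 are in both libraries. In granule neurons 38 could be compared: 21 were higher and 17 lower in GlaKO, with a median of 0.02, and 2 passed 1.5-fold, both higher, where 2.98% of all genes did in either direction and 1.78% were that much higher. Grik4, a high-affinity kainate subunit, had 105 UMIs in GlaKO and 38 in wt granule neurons, a log2 ratio of 0.98 (0.43 to 1.55), and stood at 1.00 after the cell with the most Grik4 was left out on both sides. Homer1, a postsynaptic scaffold with an activity-induced short form, was at 1.20 (0.75 to 1.68), but a single GlaKO cell held 51.2% of its UMIs there, and the same step gave 0.26 (-0.27 to 0.80) for it. Over all genes 49.2% were higher in GlaKO granule neurons. Of the 14 AMPA auxiliary genes compared there, 11 were higher and 3 lower, with a median of 0.09, and 0 passed 1.5-fold. Cnih2, which slows AMPA channel closing, was the lowest of them at -0.40 (-0.56 to -0.24), with 382 CPM in GlaKO and 503 CPM in wt; it and the genes of the next sentences without a 1.5-fold difference were named after their values were seen.

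In other neurons 17 related genes were compared, 8 higher and 9 lower in GlaKO with a median of -0.00, and Cnih2 passed 1.5-fold at -0.65 (-1.07 to -0.24) as 1 of the 17, where 11.5% of all genes did in either direction and 4.5% were that much lower. Precursors had 32 compared genes, 17 higher and 15 lower with a median of 0.02. Cacng7, a TARP that escorts AMPA receptors to the membrane, passed 1.5-fold there with 184 UMIs in GlaKO and 78 in wt (log2 ratio 0.74, 0.35 to 1.14), as 1 of the 32, where 3.03% of all genes did in either direction and 1.88% were that much higher. Its relative Cacng4 was the most abundant related gene of precursors, with 896 CPM in GlaKO and 814 CPM in wt and a log2 ratio of 0.14 (0.03 to 0.25). In astrocytes 6 of 11 compared genes were higher and 5 lower, and none passed 1.5-fold. Grin2c had a log2 ratio of 0.04 (-0.12 to 0.20) there, and Grm3, a metabotropic receptor of astrocytes, had 318 and 296 CPM (0.10, -0.09 to 0.30).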

How the data were processed

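The deposited values are raw counts of UMIs per gene and barcode, which the authors made with Cell Ranger per the submitters' processing notes, for 1 GlaKO and 1 wt library. The version of Cell Ranger was 6.0.1, and the same notes list Seurat 4, R 4.1.3 and the build mm10, and per the labels' protocols Cell Ranger 4.0 did the demultiplexing and the libraries were made with Chromium 3.1 chemistry; the sources used here do not give the annotation, filters or use of strand. Each cell was given a class where enough distinct markers had a UMI: 4 of 8 for neurons, 4 of 7 for oligodendrocyte precursors, 5 of 7 for astrocytes. A cell that passed several gates went to the class that led by 0.25 in its share of markers, and otherwise was left out (191 GlaKO and 97 wt cells); granule and Cajal-Retzius neurons needed 3 of their own markers. The gates were set after marker numbers were seen, and 93.6 and 95.1% of barcodes received a class. Scrublet (scanpy 1.11.5) marked 61 GlaKO (1.33%) and 26 wt barcodes (0.478%), which were kept; at under 0.5% it cannot be said to have worked in wt, and an alternative removes the 4% of barcodes with the highest score.

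UMIs were summed per class and library and divided by the class total. Levels have exact Poisson, ratios exact conditional and shares exact Clopper-Pearson 95% intervals (scipy 1.17.1), which cover counting error only and take UMIs as independent. A floor is 3 counts. Ratios were formed for genes with 100 UMIs or more in a class. The ratio and its interval were tested on class sums simulated as independent counts. That test does not cover variation between cells or the assignment of cells to classes. TMM factors (edgeR 4.0.16) and median-of-ratios scaling, thinning to 1000 UMIs (no cell was shallower), Leiden clusters without the 8 genes, stricter gates, equal weight over 5 parts of UMI depth and leaving out the top cell were alternatives. The members, marker lists and related genes were chosen with earlier results of these data known. All 8 genes were named in each class, of the related genes up to 6 per class past 1.5-fold whose interval excluded equal levels, and per member the 3 genes with the most similar levels. Of these, 1 is not reported here.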

Additional observations from a re-analysis of the deposited data

How the results depend on the processing

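No paired analysis was possible because each genotype has 1 library with no replicate number, and leaving out a replicate was not possible for the same reason. Of 223 values of the 23 single-gene ratios under the alternatives, 206 kept the sign of the reported ratio and 17 did not, and 15 of the 23 ratios kept it under each alternative. Both rescalings moved ratios by at most 0.042 on the log2 scale.

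The number of the 8 genes past 1.5-fold moved with the minimum number of UMIs. With a minimum of 20 it was 1 in granule neurons, 2 in Cajal-Retzius neurons, 1 in precursors and 2 in astrocytes, and with no minimum 1, 2, 2 and 3, since genes of few UMIs then enter. After thinning it was 1 in granule neurons, 2 in other neurons and 1 in astrocytes. With only Slc17a7-led cells in other neurons, an alternative chosen after seeing the data, it was 0. Related genes past 1.5-fold numbered 3 in Cajal-Retzius neurons, 10 in other neurons, 3 in precursors and 4 in astrocytes with a minimum of 20, and 2 in other neurons with Leiden clusters. The share of all genes past 1.5-fold is not given at these other settings. These counts therefore show only how the calls moved with the setting. The summed log2 ratio of precursors was 0.30 after thinning and 0.33 with equal weight over UMI depth; the cause was not tested. Averaged over both libraries, the summed level after thinning, which gives each cell the same weight, was 6444 CPM in granule neurons, 917 in Cajal-Retzius neurons, 4778 in other neurons, 2138 in precursors and 1650.04 in astrocytes, against 6180, 768, 4464, 1788 and 1554. Leiden clusters gave 643 CPM in Cajal-Retzius neurons and 4236 in other neurons, Slc17a7-led cells 4709 in other neurons, and leaving out cells that passed 2 gates, also chosen after seeing the data, 1869 in precursors. Depth limits Cajal-Retzius neurons most, where 1 UMI is worth about 5 CPM.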
